A study of Mus musculus with 6 samples.

Results

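The genes described here encode the common subunits of respiratory complexes II, III and IV and of the ATP synthase, complex V, together with cytochrome c. Members were taken by symbol: Sdha to Sdhd, genes starting with Uqcr or Atp5, Cyc1, Cycs, Cox5a, Cox5b, Cox6b1, Cox6c, Cox7b and Cox7c, with pseudogenes left out. This gave 37 genes of the 22942 in the tables, of which 4 belong to complex II, 9 to complex III, 1 is cytochrome c, 6 belong to complex IV and 17 to complex V. The mRNA came from the mouse line C3H-10T1/2, mesenchymal cells named preadipocytes in the labels, which form fat cells when given the right hormones. There were 2 groups of 3 libraries, which the series calls biological triplicates. One group received the solvent DMSO and the other 4 uM of 611 (Cpd A), which blocks LSD1, an enzyme that removes methyl groups from histones. Both groups were collected on day 6 of differentiation to brown adipocytes, and both went through the same hormone mixture. For 72 h it held insulin at 20 nM, T3 at 1 nM, and rosiglitazone and dexamethasone at 1 uM each, with 125 uM of indomethacin, 0.5 mM of isobutylmethylxanthine and 10% serum. Insulin, T3 and rosiglitazone were then kept on. The labels disagree on whether treatment began at seeding or 12 h later. In both groups the hormone mixture was started 48 h after the treatment, so 611 or DMSO was given before differentiation was induced. All cells come from 1 line, so p-values measure the spread between these cultures only.

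The respiratory chain carries electrons to oxygen across the inner mitochondrial membrane. Complex II, succinate dehydrogenase, is also an enzyme of the tricarboxylic acid cycle and hands electrons to ubiquinone. Complex III passes them from ubiquinol to cytochrome c, and complex IV passes them from cytochrome c to oxygen. Complexes III and IV help build a proton gradient, which complex V uses to make ATP. Brown fat is rich in respiratory chain and lets protons return through the uncoupling protein UCP1 instead. ATP synthase is scarce in the brown fat of rodents relative to the respiratory chain, and the subunit c gene Atp5g1 is known as a limiting one there. The subunits of complexes II to V studied here are all encoded in the nucleus, and the subunits encoded in mitochondrial DNA were not analysed here.

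Values are RPKM, that is, read counts set relative to transcript length and to library size. Library totals lay between 3.89e+07 and 4.12e+07, so a value of 100 RPKM rests on 3885 to 4119 reads per kilobase of transcript. The sources used here do not say if a read pair was counted once. Fat cell markers were present in both groups, but every library listed Ucp1, which defines brown fat, at 0. The summed level of the 12 adipocyte markers was 29571 to 30743 RPKM with DMSO and 15296 to 16870 RPKM with 611. Fabp4 alone made up most of this sum, with means of 21052 and 10946 RPKM. Changes of the single adipocyte markers ran from -14.7% for Cebpa to -68.0% for Cfd, with Pparg at -28.1% and Adipoq at -28.6%. The summed level of 10 progenitor and fibroblast markers was 233.9 to 256 RPKM with DMSO and 625 to 647 RPKM with 611. For 8 markers of dividing cells it was 66.9 to 69.5 RPKM and 154 to 173 RPKM. The summed level of 10 brown fat markers was 224 to 268 RPKM with DMSO and 84.2 to 103 RPKM with 611. Most of it came from Elovl3, Cidea and Cox8b, with DMSO means of 151, 61.7 and 28.1 RPKM. Prdm16, Dio2, Ppargc1a, Ebf2 and Zic1 had means below 1 RPKM in both groups. Of the 7 tested, 5 were lower and 1, Ebf2, was higher, a call lost after median-of-ratios scaling. Of the other lists, 12 of 12 adipocyte markers were lower with 611, 8 of 9 tested progenitor markers were higher, and 8 of 8 dividing cell markers were higher. Over all genes tested 17.7% were called lower and 41.6% higher, which stands beside every count of markers given here. What part the shifts of the markers have in the results on the respiratory genes was not tested. Macrophage markers (2 of 6 tested, 1 higher) summed to 0.921 to 1.24 RPKM with DMSO and 1.46 to 2.53 RPKM with 611, with Ptprc and Itgam listed at 0. Endothelial markers (1 of 6 tested, higher) summed to at most 0.323 RPKM, with Cdh5, Kdr, Cldn5 and Tie1 listed at 0. Muscle markers (3 of 8 tested, 2 lower and 1 higher) summed to 3.66 to 4.03 RPKM with DMSO and 1.10 to 1.38 RPKM with 611, with Myod1, Myog, Ckm and Myh4 listed at 0. Bone and cartilage markers (2 of 7 tested, both higher) summed to 10.1 to 10.8 RPKM and 23.8 to 24.97 RPKM, with Sost and Acan listed at 0. In such bulk samples, fewer fat cells and less of a transcript per fat cell cannot be told apart.

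With 611 the transcripts of complexes II to V were lower almost throughout, each by a modest amount. Of the 37 members, 35 were lower and 0 were higher (limma, Benjamini-Hochberg adjusted p below 0.05 over 13829 genes), against 17.7% of all genes tested called lower and 41.6% called higher. At an unadjusted limma p below 0.05 the counts were also 35 and 0, against 2659 lower and 6141 higher of the 13829 genes tested. The 2 that passed in neither direction, Atp5g1 and Atp5g2, both encode subunit c of the ATP synthase. In the same 35 genes all 3 libraries with 611 lay below all 3 with DMSO, which 20.4% of all genes tested did. All 37 members passed the filter on low values.

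The falls of the 35 genes ran from 12.3% for Atp5e to 35.5% for Uqcrq, and 1 of them, Uqcrq, reached 1.5-fold. The median log2 fold change of the members, on log2(RPKM + 1), was -0.39, beside 0.10 over all genes tested. Scaling the libraries by the median of ratios lowered the median of all genes by 0.11. After it the members had a median of -0.54, and 36 were lower and 0 higher, against 28.6% of all genes called lower and 28.5% called higher. Of all calls, 70.1% were higher before this scaling and 49.9% after it. The member added by the scaling was Atp5g2. With the replicate number as a block the members' calls were as without it, against 19.5% of all genes called lower. Members were abundant transcripts, with mean levels from 106 to 1561 RPKM. Of the other 492 genes in that range of levels 232, or 47.2%, were called lower, with a median log2 fold change of -0.10.

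**Figure D1:**
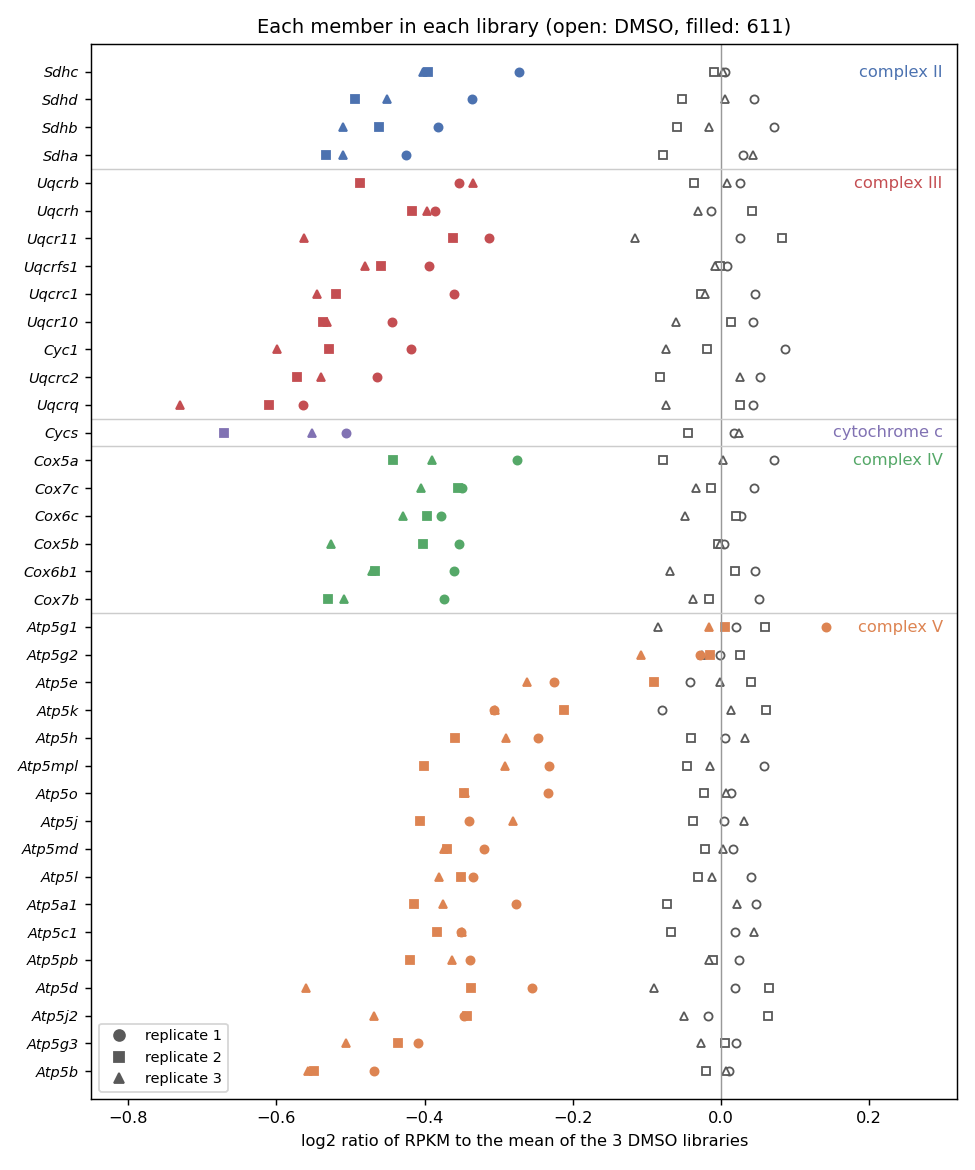
Each row is a member and each point a library, placed by the log2 ratio of its RPKM to the mean of the 3 DMSO libraries; open points are DMSO, filled points 611, and the shape gives the replicate number. In 35 rows the filled points lie left of every open point, and in the rows of Atp5g1 and Atp5g2 they overlap.

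As the plot of each member by library shows, 611 replicate 1 was the highest of its group for 30 of the 37 members, and DMSO replicate 1 was the highest of its group for 24. Leaving out either of them changed no call among the members. Replicates were tight, with a coefficient of variation between 0.269% and 10.7% and a median of 3.89%.

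**Figure D2:**
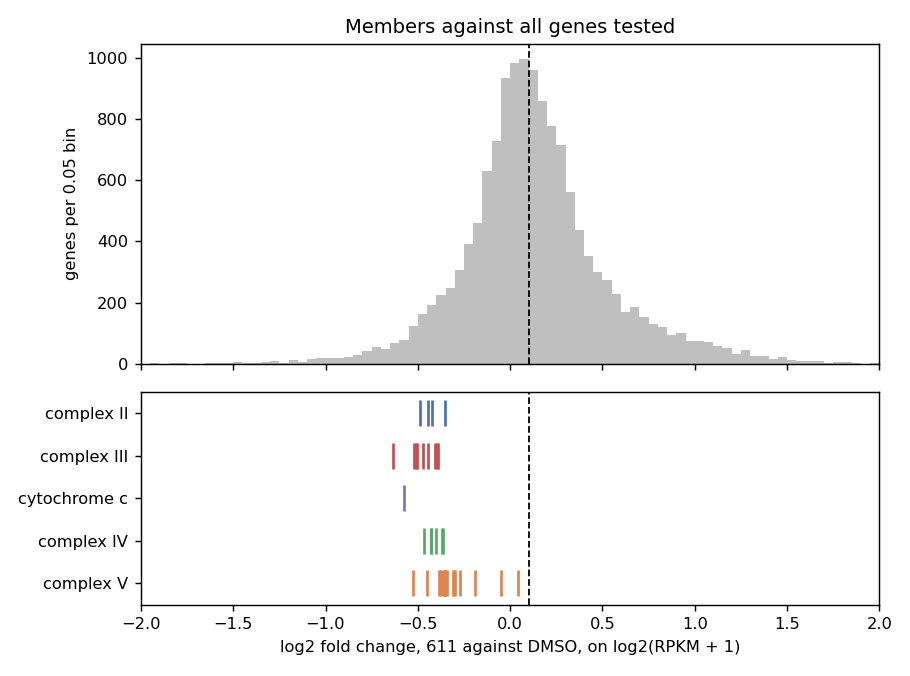
The upper panel counts genes by log2 fold change in steps of 0.05, and the lower panel marks each member by complex; the dashed line is the median of all genes tested, 0.10. All 37 members lie left of that line, between -0.63 and 0.05, and the axis leaves out genes beyond 2 in either direction.

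Complex II has 4 subunits and all 4 were lower, with a median log2 fold change of -0.43. Sdha, the flavoprotein that oxidises succinate, was at 273, 253 and 275 RPKM in DMSO replicates 1, 2 and 3 and at 199, 185 and 188 RPKM in 611 replicates 1, 2 and 3. Every library with 611 was thus below every DMSO library, and the log2 fold change was -0.49 ± 0.05 (SE; limma, Benjamini-Hochberg adjusted p = 3.5e-05). Sdhb, the iron-sulfur subunit, was at 129, 118 and 121 RPKM with DMSO and at 94.1, 89.0 and 86.2 RPKM with 611. Its mean fell by 26.8%, and it was the lowest of the members in both groups.

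The other subunits of complex II anchor it in the membrane and bind ubiquinone. Sdhc was at 182, 180.4 and 182 RPKM with DMSO and at 150.3, 138 and 137 RPKM with 611. Sdhd was at 209, 196 and 204 RPKM with DMSO and at 161, 144 and 148 RPKM with 611. In both genes 611 replicate 1 was the highest of its group and still below all DMSO libraries. Sdhc fell by 21.9% and Sdhd by 25.5% (limma, Benjamini-Hochberg adjusted p = 1.3e-04 and 9.7e-05).

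All 9 nuclear members of complex III were lower, and their median log2 fold change was -0.47. The catalytic subunits encoded in the nucleus are Cyc1, cytochrome c1, and Uqcrfs1, the Rieske iron-sulfur protein. Cyc1 was at 314, 292 and 281 RPKM with DMSO and at 221, 205 and 195 RPKM with 611. Uqcrfs1 was at 333, 331 and 329 RPKM with DMSO and at 252, 241 and 237 RPKM with 611. The groups stayed apart in both genes, and the log2 fold changes were -0.51 ± 0.06 and -0.44 ± 0.04 (SE; limma, Benjamini-Hochberg adjusted p = 9.0e-05 and 1.7e-05).

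Uqcrq, a small subunit that sits against cytochrome b, had the largest fall of all members. It was at 502, 496 and 462 RPKM with DMSO and at 329, 319 and 293 RPKM with 611, a log2 fold change of -0.63 ± 0.06 (SE; limma, Benjamini-Hochberg adjusted p = 1.8e-05). The core subunit gene Uqcrc2 was at 195, 178 and 191 RPKM with DMSO and at 136, 126 and 129 RPKM with 611. The smallest falls of the complex were those of Uqcrb and Uqcrh, the latter the hinge protein that contacts cytochrome c1. Uqcrb was at 254, 243 and 251 RPKM with DMSO and at 195, 178 and 198 RPKM with 611. Uqcrh was at 388, 404 and 384 RPKM and at 300.1, 294 and 298 RPKM. Both fell clear of the DMSO libraries, by 23.7% and 24.2%. The other core subunit gene, Uqcrc1, and the small subunit genes Uqcr10 and Uqcr11 fell by 27.9%, 29.5% and 24.7%.

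Cycs encodes cytochrome c, the soluble carrier between complexes III and IV, which also acts in apoptosis. It was at 314, 301 and 316 RPKM with DMSO and at 219, 195 and 212 RPKM with 611. Its fall of 32.9%, with a log2 fold change of -0.57 ± 0.05 (SE; limma, Benjamini-Hochberg adjusted p = 1.7e-05), was second among the members to that of Uqcrq.

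The 6 complex IV members are supernumerary subunits, since the catalytic subunits are encoded in mitochondrial DNA. The choice by symbol left brown fat and muscle isoforms out of this group. All 6 were lower, by 22.5% to 27.8%, and the median of their log2 fold changes was -0.41. Cox7b was at 212, 202 and 199 RPKM with DMSO and at 158, 142 and 144 RPKM with 611. Cox6b1, which faces the intermembrane space where cytochrome c docks, was at 443, 434 and 409 RPKM with DMSO and at 334, 310.2 and 309 RPKM with 611. These were the largest falls of the group, with log2 fold changes of -0.47 ± 0.05 and -0.43 ± 0.05 (SE; limma, Benjamini-Hochberg adjusted p = 5.6e-05 and 8.7e-05).

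Cox5a, which binds a thyroid hormone metabolite and lies on the matrix side, was at 194, 175 and 185 RPKM with DMSO and at 152, 136 and 141 RPKM with 611. Cox7c was at 568, 546 and 538 RPKM with DMSO and at 432, 431 and 416 RPKM with 611. These were the smallest falls of the group, and the libraries of the 2 treatments still did not overlap. Cox5b, the zinc-binding subunit, fell by 25.5% and Cox6c by 24.3%.

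**Figure D3:**
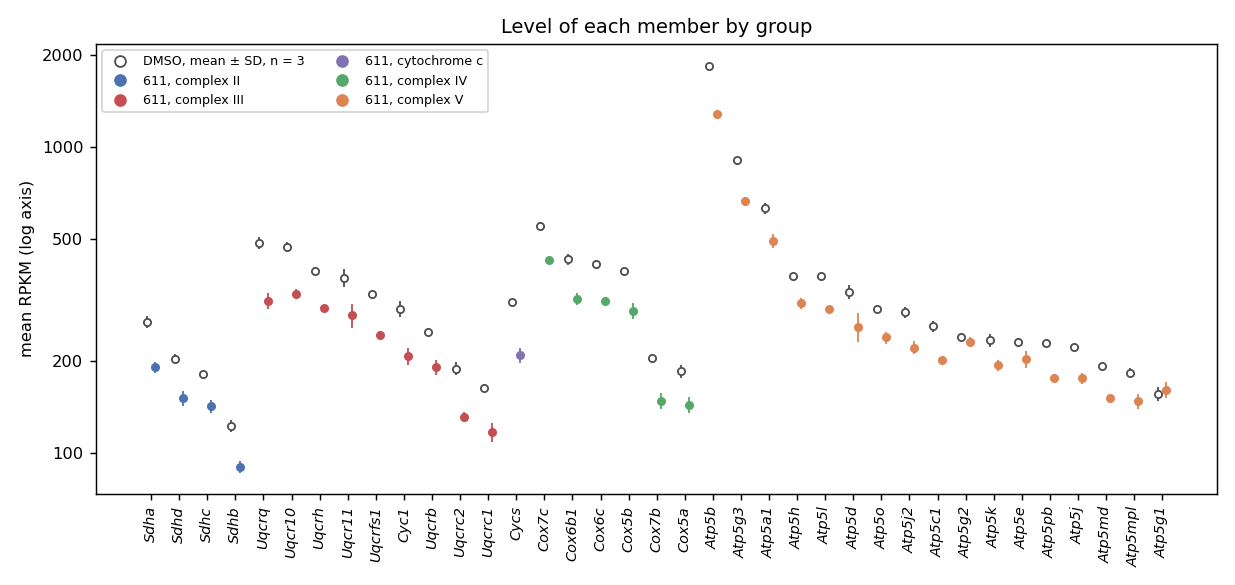
Points are mean RPKM ± SD of the 3 libraries of a group on a log axis; open points are DMSO and filled points 611, ordered within each complex by the DMSO level. Atp5b stands highest at 1841 RPKM with DMSO, Sdhb lowest at 123 RPKM, and only Atp5g1 has its 611 point above its DMSO point.

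RPKM is relative to length, so levels of genes can be set side by side, as in the plot of levels by group. With DMSO the levels within a complex spanned 2.18-fold in complex II, 3.00-fold in complex III, 2.98-fold in complex IV and 11.8-fold in complex V. With 611 they spanned 2.12-fold, 2.83-fold, 2.98-fold and 8.69-fold. The lowest gene of complex V was Atp5g1 with DMSO, at 155 RPKM, and Atp5mpl with 611, at 147 RPKM. With its 2 listed transcripts summed, Atp5g1 was at 310 RPKM with DMSO. How far the span of complex V narrowed thus depends in part on how transcripts are taken. The order of levels was nearly the same in both groups, with a Spearman correlation of 0.975 across the 37 members, which share their libraries. Summed over each complex, the RPKM with 611 was 74.0% of that with DMSO for complex II, 71.6% for complex III, 75.4% for complex IV and 77.1% for complex V. All members together made up 3.73% to 3.82% of the summed RPKM of all genes with DMSO and 2.88% to 3.05% with 611.

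The ATP synthase had 15 of 17 members lower and a median log2 fold change of -0.35. In 11 of its 17 members the log2 fold change lay above that of Sdhc, -0.355, which was the smallest fall among the 20 members outside it. Among these 11, Atp5a1, Atp5l and Atp5md were nearly level with Sdhc, at -0.354, -0.354 and -0.352, and Atp5g1 and Atp5g2 were not called. The order of the complexes is a description, and the difference between complexes was not tested. The soluble F1 part holds the catalytic sites. Its beta subunit gene Atp5b, the highest of all members, was at 1856, 1816 and 1851 RPKM with DMSO and at 1330.4, 1259 and 1251 RPKM with 611. The alpha subunit gene Atp5a1 was at 652, 599.7 and 640.3 RPKM with DMSO and at 520.5, 473 and 486 RPKM with 611. Both were lower in every library with 611, with log2 fold changes of -0.52 ± 0.05 and -0.35 ± 0.05 (SE; limma, Benjamini-Hochberg adjusted p = 3.9e-05 and 4.7e-04).

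The alpha and beta subunits stand in equal number in the enzyme, while the Atp5b transcript was at 2.92 times the level of Atp5a1 with DMSO and at 2.59 times with 611. The log2 ratio of Atp5b to Atp5a1 was 1.51, 1.60 and 1.53 with DMSO and 1.35, 1.41 and 1.36 with 611, so the groups did not overlap (exact permutation test, two-sided, p = 0.1, the smallest that 3 against 3 libraries can give). Over the 7 shares and ratios tested in this way, the Benjamini-Hochberg adjusted p of this ratio was 0.117. The genes of the central stalk, Atp5c1, Atp5d and Atp5e, fell by 22.1%, 23.1% and 12.3%. Atp5e, the epsilon subunit, had the smallest fall of the 35 lower members (log2 fold change -0.19 ± 0.05 SE; limma, Benjamini-Hochberg adjusted p = 0.0106).

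The peripheral stalk keeps the F1 head from turning with the rotor, and all 4 of its genes were lower. Atp5pb fell by 22.8%, Atp5h by 18.7%, Atp5j by 21.1% and Atp5o, the oligomycin sensitivity protein, by 19.2%. The small membrane subunits shape the dimers of the enzyme and the cristae, and all 5 of their genes were lower as well. Atp5k fell by 17.2%, Atp5l by 21.8%, Atp5j2 by 23.4%, Atp5md by 21.8% and Atp5mpl by 19.1%.

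Subunit c forms the ring in the membrane that protons turn. It is encoded by 3 genes whose precursors differ in the targeting peptide and give the same mature protein. Atp5g1 was at 158, 162 and 147 RPKM with DMSO and at 172, 156 and 154 RPKM with 611. Atp5g2 was at 238, 243 and 234.4 RPKM with DMSO and at 234.0, 236 and 221 RPKM with 611. In both genes the libraries of the groups overlapped. Between libraries of the same replicate number, Atp5g2 was lower with 611 in 3 of 3 pairs and Atp5g1 in 1 of 3. The log2 fold change of Atp5g1 was 0.05 ± 0.05 and that of Atp5g2 -0.05 ± 0.04 (SE; limma, Benjamini-Hochberg adjusted p = 0.505 and 0.308). With the replicate number as a block Atp5g2 still did not pass (limma, Benjamini-Hochberg adjusted p = 0.146).

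Atp5g3, the most abundant of the subunit c genes, was at 919, 910.2 and 889 RPKM with DMSO and at 683, 669.8 and 638 RPKM with 611. It fell by 26.8%, with no overlap between the groups (log2 fold change -0.45 ± 0.05 SE; limma, Benjamini-Hochberg adjusted p = 4.7e-05). Atp5g3 gave 69.7% ± 0.435 of the summed subunit c RPKM with DMSO and 62.9% ± 0.174 with 611 (SD, n = 3; exact permutation test, two-sided, p = 0.1, the smallest possible). The share of Atp5g1 went from 12.0% ± 0.393 to 15.2% ± 0.537 and that of Atp5g2 from 18.4% ± 0.193 to 21.9% ± 0.368, each again without overlap and with exact permutation p = 0.1 (SD, n = 3). Over the 7 shares and ratios compared in this way, the Benjamini-Hochberg adjusted p of these shares was 0.117. The 3 shares add up to the whole in each library, so a fall of Atp5g3 alone raises the other shares. The 3 tests are therefore not independent. Atp5g1 has 2 listed transcripts of nearly equal RPKM, and with the transcripts of each gene summed its share went from 21.3% ± 0.625 to 26.3% ± 0.807 (SD, n = 3), above that of Atp5g2 in both groups. The share of Atp5g2 was then 16.4% with DMSO and 2.59 percentage points higher with 611, and that of Atp5g3 was 62.3% with DMSO and 54.7% with 611. The order of Atp5g1 and Atp5g2 thus depends on how their transcripts are taken.

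**Figure D4:**
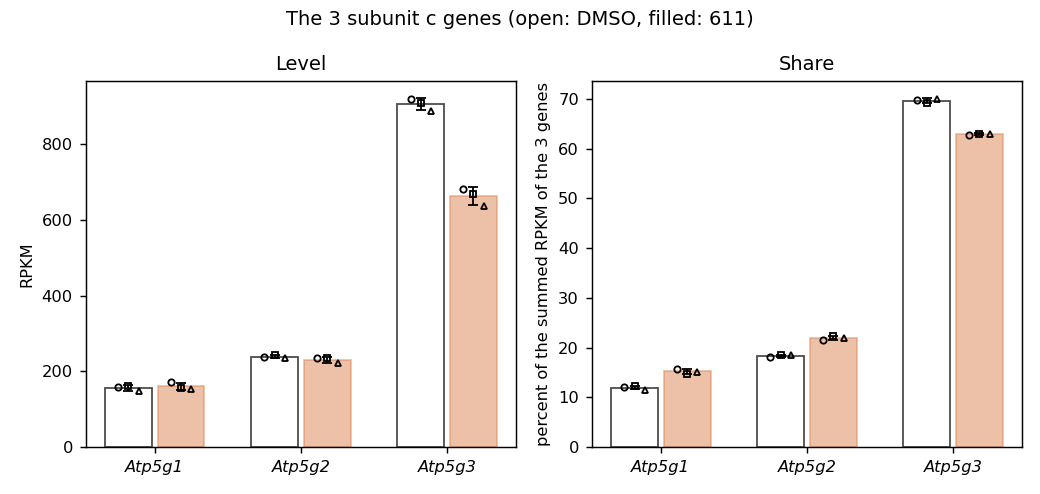
Bars are means and error bars SD of 3 libraries, points are libraries with the shape giving the replicate; the left panel shows RPKM and the right panel each gene's percent of the summed RPKM of the 3 genes. The level of Atp5g3 falls from 906 to 664 RPKM while Atp5g1 and Atp5g2 overlap between groups, and the share of Atp5g3 goes from 69.7% to 62.9%.

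Ratios between the subunit c genes were compared as well, and they rest on the same values as the shares. The log2 ratio of Atp5g1 to Atp5g3 was 0.50 higher with 611 and that of Atp5g2 to Atp5g3 was 0.40 higher, both without overlap between the groups (exact permutation test, two-sided, p = 0.1). The log2 ratio of Atp5g1 to Atp5g2 differed by 0.10, with overlapping libraries (exact permutation p = 0.3). Median-of-ratios scaling moved the log2 fold changes to -0.11 for Atp5g1, which was still not called, to -0.20 for Atp5g2, which then passed as lower, and to -0.60 for Atp5g3 (limma, Benjamini-Hochberg adjusted p = 0.155, 0.0034 and 1.8e-05). With the replicate number as a block after the same scaling, Atp5g1 passed as lower too, at the same -0.11 (limma, Benjamini-Hochberg adjusted p = 0.0394). The shares and ratios within a library do not depend on the scaling.

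Near-identical gene copies limit how exactly some of these transcripts can be counted. Of the 37 coding sequences, 16 had a copy of at least 95% identity over at least 80% of their length in another annotated gene, and for 14 of them at least 1 such copy was a pseudogene. Atp5g1 had 1 such pseudogene and Atp5g2 had 2, while Atp5g3 had no such copy. The sources used here do not say how reads with several matches were assigned, and the part of the copies in these values was not tested. Of the 16 members with a copy, 14 were called lower with a median log2 fold change of -0.37 over the 16, and of the 21 without one, 21 were called lower with a median of -0.42. The spans of 13 members overlap another gene, among them Atp5j, which overlaps Gabpa, and whether strand was used in counting is not given either.

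The promoters of the subunit c genes are shown because only Atp5g3 of the 3 was called lower without scaling. That of Sdhd is shown as an example from another complex with both NRF1 and ETS letters, which Atp5h and Atp5k hold as well. Sequences are the 250 bases before the RefSeq start of each gene in build GRCm38.p6, which is not the mm9 build of the deposited values, 5′ to 3′ on the gene's strand, with motif letters in capitals. They lie at chr11:96075632-96075881, strand minus, for Atp5g1, chr15:102671048-102671297, strand minus, for Atp5g2, chr2:73911327-73911576, strand minus, for Atp5g3 and chr9:50603850-50604099, strand minus, for Sdhd.
Atp5g1: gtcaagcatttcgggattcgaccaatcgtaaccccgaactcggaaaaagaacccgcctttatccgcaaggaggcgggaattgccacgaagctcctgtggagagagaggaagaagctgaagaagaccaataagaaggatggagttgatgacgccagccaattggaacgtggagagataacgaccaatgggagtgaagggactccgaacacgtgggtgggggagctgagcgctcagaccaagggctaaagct
Atp5g2: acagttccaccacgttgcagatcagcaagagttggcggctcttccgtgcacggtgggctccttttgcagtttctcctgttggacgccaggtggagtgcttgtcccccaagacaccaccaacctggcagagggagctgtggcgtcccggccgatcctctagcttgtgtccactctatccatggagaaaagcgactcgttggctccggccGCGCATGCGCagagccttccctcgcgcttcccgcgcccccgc
Atp5g3: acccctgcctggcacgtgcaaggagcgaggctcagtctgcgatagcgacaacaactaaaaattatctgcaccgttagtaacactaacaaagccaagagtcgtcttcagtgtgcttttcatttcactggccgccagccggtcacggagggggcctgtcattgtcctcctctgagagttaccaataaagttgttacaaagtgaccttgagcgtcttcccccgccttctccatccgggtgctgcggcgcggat
Sdhd: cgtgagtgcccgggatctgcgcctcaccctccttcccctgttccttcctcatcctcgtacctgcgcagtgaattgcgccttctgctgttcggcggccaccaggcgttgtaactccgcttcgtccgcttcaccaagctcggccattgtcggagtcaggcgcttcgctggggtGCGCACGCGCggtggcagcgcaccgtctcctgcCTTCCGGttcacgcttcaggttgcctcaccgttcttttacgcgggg

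Nuclear respiratory genes are known targets of NRF1 and of ETS factors such as GABPA. The motifs searched on both strands were GCGCA and GCGC with any 1 base between them for NRF1, CCGGAAG for ETS factors, AAGATGGC for YY1 and TATAAA for the TATA box, in 300 bases from 250 before to 50 after each start. The RefSeq table held a promoter for 29 of the 37 members. A gene was counted as holding the letters if any of its promoters did. The NRF1 letters were in 9 of these members (31.0%), against 11.2% of 10505 tested genes with a promoter. Of 375 other genes at least as abundant as the lowest member, 13.3% held them. The ETS letters were in 11 (37.9%), against 19.5% of the tested genes and 21.9% of those other genes. YY1 letters were in 3 (10.3%), against 5.16% and 5.33%. The TATA letters were in 2 (6.90%), against 9.02% and 13.9%. Counted by promoter, the NRF1, ETS, YY1 and TATA letters were in 9, 11, 3 and 2 of 32 member promoters. Over all 32851 promoters in the table the shares were 4.60%, 8.86%, 2.75% and 13.6%. In the printed sequences the NRF1 letters begin 42 bases before the start in Atp5g2 and 79 bases before it in Sdhd, and ETS letters on the opposite strand begin 46 bases before it in Sdhd. Atp5g3 holds the NRF1 letters beyond the printed part, after the start, and Atp5g1 holds none of the 4 motifs in the window. Members with the NRF1 letters had a median log2 fold change of -0.36 and those without -0.39, and for ETS letters these were -0.35 and -0.40. A match is a description of the letters and not a site.

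Genes around these complexes, taken from lists by function, are given beside the 17.7% of all genes tested that were lower and the 41.6% that were higher. Of 36 complex I subunits, 35 were lower and 0 higher, with a median log2 fold change of -0.38. At an unadjusted limma p below 0.05 the counts were also 35 and 0, against 2659 and 6141 of the 13829 genes tested. Ndufs3, a core subunit, went from 161 ± 6.68 to 104 ± 5.49 RPKM and Ndufa3 from 155 ± 0.734 to 101 ± 5.01 RPKM (SD, n = 3). Among the other complex IV subunits 9 of 12 tested were lower. The brown fat and muscle isoform gene Cox8b was at 28.5, 26.8 and 28.8 RPKM with DMSO and at 4.32, 2.41 and 3.10 RPKM with 611, an 8.56-fold difference. Cox7a1, another such isoform, fell 2.69-fold, beyond the range of the common subunits, whose largest fold was 1.55.

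Assembly factors were lower in part, and no difference between these lists and the members was tested. For complex IV assembly and copper delivery 14 of 23 were lower, among them Cox17, a copper chaperone, from 126 ± 4.72 to 92.8 ± 3.73 RPKM and Taco1, which aids translation of a mitochondrial oxidase subunit, from 29.9 ± 0.894 to 22.1 ± 1.33 RPKM (SD, n = 3). For complex II, 2 of 4 were lower, Sdhaf1 by 1.24-fold and Sdhaf3 by 1.30-fold. For complex III 3 of 6 were lower and 1 was higher. After scaling 18 of 23, 3 of 4 and 4 of 6 were lower, against 28.6% of all genes tested. Uqcc1, which acts in cytochrome b synthesis, fell 1.37-fold, and Uqcc3 fell 1.18-fold.

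The higher gene was Uqcc2, the partner of Uqcc1 in that step. It was at 45.3, 47.5 and 45.7 RPKM with DMSO and at 63.2, 65.3 and 65.5 RPKM with 611. Every library with 611 was above every DMSO library, and the log2 fold change was 0.48 ± 0.04 (SE; limma, Benjamini-Hochberg adjusted p = 7.7e-06) and 0.33 after scaling, still called.

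For the ATP synthase the assembly genes Atpaf1, Atpaf2 and Tmem70 were lower, Atpaf2 by 1.41-fold and Tmem70 by 1.39-fold. Atpif1, the inhibitor that stops the enzyme from consuming ATP, was the only one of these 4 genes that was higher. It was at 40.7, 44.6 and 36.7 RPKM with DMSO and at 54.1, 64.4 and 65.1 RPKM with 611. The groups did not overlap, and the log2 fold change was 0.58 ± 0.09 (SE; limma, Benjamini-Hochberg adjusted p = 4.3e-04) and 0.43 after scaling, still called. It thus went against the direction of the enzyme's own subunits.

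**Figure D5:**
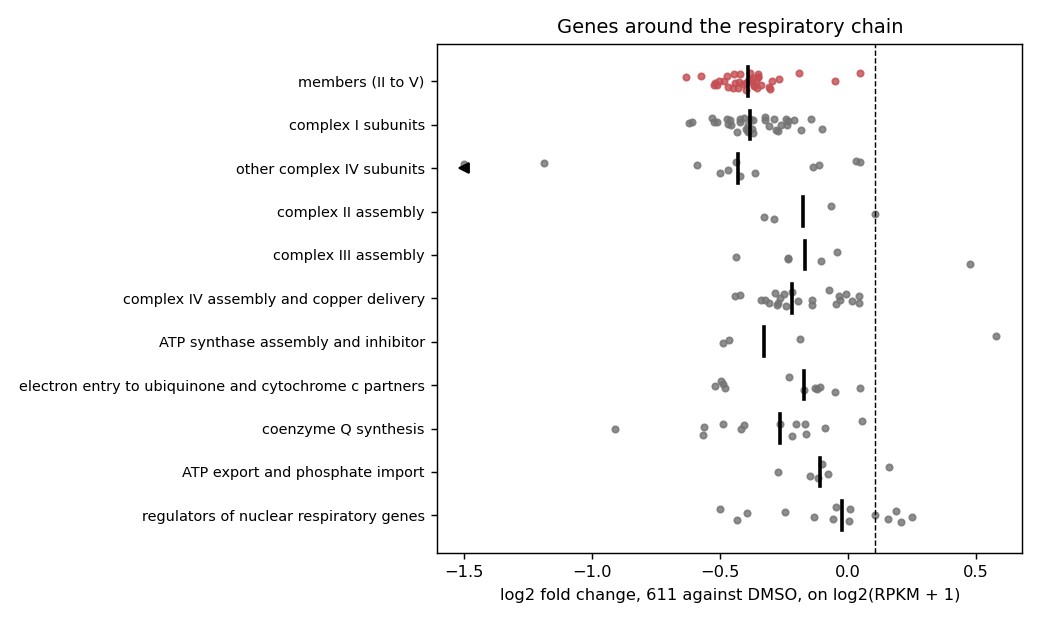
Each point is a gene by its log2 fold change, bars are the median of each list, and the dashed line is the median of all genes tested, 0.10. The medians run from -0.43 for the other complex IV subunits to -0.02 for the regulators, Uqcc2 and Atpif1 stand out to the right, and Cox8b at -2.79 is drawn at the left edge as an arrowhead.

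The routes that feed ubiquinone were lower in part without scaling. Of 11 genes of electron entry and cytochrome c partners 6 were lower, led by Etfdh, which passes electrons from fatty acid oxidation to ubiquinone, from 101 ± 4.05 to 69.9 ± 3.12 RPKM (SD, n = 3). Etfa, a subunit of the flavoprotein that supplies it, fell 1.41-fold. Of 13 genes of coenzyme Q synthesis 9 were lower. Coq8a, an atypical kinase of this pathway, fell 1.97-fold from 20.3 ± 1.95 to 10.3 ± 0.480 RPKM and Coq9 fell 1.49-fold from 107 ± 2.10 to 71.8 ± 3.01 RPKM (SD, n = 3). After scaling 10 of the 11 genes of electron entry and 12 of the 13 of coenzyme Q synthesis were lower, against 28.6% of all genes tested.

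Carriers that serve the ATP synthase had small differences. Of 6 genes tested in that list 3 were lower and 1 higher, against 17.7% and 41.6% of all genes tested. The phosphate carrier gene Slc25a3 fell 1.11-fold to 275 ± 3.84 RPKM and the adenine nucleotide carrier gene Slc25a5 fell 1.21-fold to 629.6 ± 45.6 RPKM, while Slc25a4, another adenine nucleotide carrier, was 1.12-fold higher at 321 ± 4.98 RPKM (SD, n = 3). After scaling, the call for Slc25a4 was lost.

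Of 14 regulators of nuclear respiratory genes and of mitochondrial transcription, 4 (28.6%) were lower and 3 (21.4%) higher, against 17.7% and 41.6% of all genes tested. Ppargc1b, a coactivator of these genes, fell 1.45-fold from 16.7 ± 0.764 to 11.5 ± 0.951 RPKM, and Esrra, a nuclear receptor that works with it, fell 1.36-fold from 36.8 ± 0.444 to 27.0 ± 1.67 RPKM (SD, n = 3; limma, Benjamini-Hochberg adjusted p = 1.5e-04 and 6.8e-05). Tfb2m and Polrmt, of mitochondrial transcription, fell 1.33-fold and 1.21-fold. The higher genes were Gabpb1, 1.23-fold, Pprc1, 1.18-fold, and Nrf1, 1.17-fold. After scaling all 3 calls were lost and 7 of the 14 regulators were lower, against 28.6% of all genes tested. Gabpa, at 20.1 ± 1.14 and 20.1 ± 0.619 RPKM, and Ppargc1a, at 0.527 ± 0.0999 and 0.705 ± 0.157 RPKM, did not pass the test without scaling (SD, n = 3; limma, Benjamini-Hochberg adjusted p = 0.977 and 0.129). After scaling Gabpa passed as lower, with a log2 fold change of -0.14, and Ppargc1a still did not pass (limma, Benjamini-Hochberg adjusted p = 0.0435 and 0.325).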

How the data were processed

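Each library's deposited table gives RPKM, computed by the authors, for 28430 RefSeq transcripts. Per the submitters' processing notes, TopHat2 2.0.12, TopHat, SAMtools and build mm9 were used; the sources used here do not name the program behind the RPKM values. Library totals came from the step of 1 read in low values. Symbols came from RefSeq (GRCm38.p6): 27789 accessions matched, and 641, with 1.50% of summed RPKM, kept their accession. The transcript with the highest mean RPKM stood for its gene.

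limma 3.58.1 (R 4.3.3) with trend was fitted on log2(RPKM + 1) for 13829 genes with at least 0.1 RPKM in 3 libraries, with group as the only term and Benjamini-Hochberg adjustment, and tested on simulated data. Fold changes on this scale understate those of low genes; printed folds are ratios of mean RPKM. BLAST+ 2.17.0 searched GENCODE M21 transcripts for copies. Alternatives were another pseudocount, 2 other filters, scaling, summed transcripts, a replicate block and leaving out each library.

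Same-numbered libraries deviated together, with correlations of 0.30, 0.30 and 0.18 across genes, and were taken as paired for the alternative with a block. Members and lists were chosen with earlier results of these data known. Tests of the subunit c shares were planned, while the log2 ratios, that of Atp5b to Atp5a1 among them, were added to the plan. Every member is named; 20 are given in every library: all of complex II, Cycs, catalytic subunits, the 2 largest and 2 smallest changes of complexes III, IV and V, and subunit c. From each list, up to 2 genes called in each direction with at least 1 RPKM were to be named, largest change first; Atpaf1, Tfb2m, Polrmt, Nrf1, Gabpa and Ppargc1a were added after their values were seen.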

Additional observations from a re-analysis of the deposited data

How the results depend on the processing

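The 35 members called lower were lower under each of the 13 alternatives, and 0 were called higher in any of them. After median-of-ratios scaling 3962 genes, 28.6% of all genes tested, were called lower. The count was 4327 when the replicate block was added to the scaling, an alternative chosen after seeing the data. Under both of these the medians were -0.54 for the members, -0.59 for complex II, -0.62 for complex III, -0.56 for complex IV and -0.50 for complex V. Under both, 10 of 11 genes of electron entry were lower, and of 6 tested genes of ATP export 5 were lower and 0 higher (limma). Of 14 regulators 0 were higher under both, while 7 were lower with scaling and 9 with the block as well. With the replicate block alone 1 of 4 genes of complex II assembly was higher, against 0 without it. Of 6 tested genes of ATP export 5 were lower with the block, against 3 without it. Over all genes tested the block fit called 19.5% lower and 44.6% higher. The block alone changed no call among the members. Atp5g1 changed sign to -0.11 under both scaled fits and to -0.0037 without 611 replicate 1, and over the libraries left out it ran from there to 0.08 (0.0757 without DMSO replicate 2). Leaving out each library, the median of complex III ran from -0.53 to -0.44. With 3 libraries a group, no exact permutation test of a share or ratio can go below p = 0.1.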
